A study of Mus musculus with 4 samples.

Results

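Sst, Npy, Nos1, Chodl and Cort were taken by symbol from the deposited table of spatial counts, and all 5 were present among its 19465 genes. The table came from Visium CytAssist sections of formalin-fixed brains, cut coronally through the striatum, in which each spot captures RNA from a small region that can hold several cells. The study has 4 mice, 2 wild type and 2 heterozygous for Celsr3, an atypical cadherin, and it asks whether Celsr3 dosage alters the striatum. The mice had no treatment, and their age, sex and strain are not given in the sources used here. Spot names end in a number from 1 to 4, called sets 1 to 4 below, and 0 of the 4 sets could be tied to a mouse through the labels. No genotype comparison was therefore made, and each value is given per set without a test over sets.

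Somatostatin (Sst) and neuropeptide Y (Npy) are peptide transmitters, and neuronal nitric oxide synthase (Nos1) makes the gas transmitter nitric oxide. A class of GABAergic interneurons in the striatum makes all of these together, and a sparse class of long-range projecting neurons in the cortex does so too and is marked by chondrolectin (Chodl). Cortistatin (Cort) is a peptide close to somatostatin that binds the same receptors and is found in cortical interneurons. Most cortical Sst neurons lack Nos1, and several cortical interneuron classes make Npy.

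The 150 bases before the annotated start of each gene are shown because Sst, Npy, Nos1 and Chodl share spots in the results below, with Cort as the relative of Sst. They come from RefSeq promoters on build GRCm38.p6, where 5 of 5 genes matched, and run 5′ to 3′ on the strand of the gene. Capitals mark TGACG, the half-site of the cyclic AMP response element, or its reverse complement.
Sst, chr16:23890845-23890994, minus strand: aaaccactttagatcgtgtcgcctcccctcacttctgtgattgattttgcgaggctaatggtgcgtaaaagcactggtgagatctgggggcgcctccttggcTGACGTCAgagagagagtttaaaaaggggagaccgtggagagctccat
Npy, chr6:49822560-49822709, plus strand: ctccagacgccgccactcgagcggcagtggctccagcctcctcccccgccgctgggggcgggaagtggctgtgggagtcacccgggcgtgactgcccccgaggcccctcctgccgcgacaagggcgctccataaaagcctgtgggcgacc
Nos1, chr5:117866689-117866838, plus strand: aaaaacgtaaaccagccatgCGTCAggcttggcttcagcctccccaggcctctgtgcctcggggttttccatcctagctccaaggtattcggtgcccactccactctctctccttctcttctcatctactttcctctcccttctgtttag
Chodl, chr16:78930798-78930947, plus strand: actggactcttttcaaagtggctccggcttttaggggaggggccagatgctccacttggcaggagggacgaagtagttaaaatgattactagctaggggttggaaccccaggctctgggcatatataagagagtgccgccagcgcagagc
Cort, chr4:149126764-149126913, minus strand: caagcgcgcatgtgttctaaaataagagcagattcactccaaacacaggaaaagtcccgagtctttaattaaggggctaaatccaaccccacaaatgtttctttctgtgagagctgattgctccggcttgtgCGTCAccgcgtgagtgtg

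Searched on both strands, TGACG stood 2 times in the Sst window, overlapping as the palindrome TGACGTCA from base -48 to base -41 before the start. It stood once in the Nos1 window and once in the Cort window, and these letters were not in the Npy and Chodl windows. Of 32851 promoter windows of the same length, 13.3% held TGACG and 1.36% held TGACGTCA. The matches are a description of the letters and were not tested against the levels. Whether transcription begins at these annotated starts in brain was not tested either. The Nos1 window ends in a run rich in C and T followed by AG, as introns do, so it may not be a promoter.

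The 4 sets held 12602 spots, of which 12601 had at least 500 counts, with 90752475 to 174761560 counts per set and a median of 26444.5 to 52481 counts per spot. Of 4744 different barcodes, 1613 were in all 4 sets. Each spot went to the area whose marker genes, none of them members, scored highest. The sets held areas unequally, with 159, 1, 4 and 332 thalamus spots and 42, 147, 218 and 39 septum spots in sets 1 to 4. The 2544 striatum spots had Adora2a and Ppp1r1b among their leading genes, both genes of striatal projection neurons. Both were also among the markers that placed these spots, so their lead follows from the choice. Penk and Drd2, which were not markers, were among the leading genes too. The cortex comprised the spots of layers 2/3, 4, 5 and 6. When areas were instead set by clusters of spots, 4179 of the 12601 spots moved to another area or none. Striatum kept 96.2% of its spots, and the other areas kept from 44.2% (layer 5) to 87.7% (thalamus). Layer 4 kept 53.6%, claustrum and endopiriform 52.7% and basal forebrain 50.6%. The orders of areas and layers below use the marker scores only. Each level is a CPM, that is, counts summed over the spots of an area and scaled to 1000000, with 95% intervals that cover counting error only. The counts come from probes, so levels were not compared between genes. Fewer cells of a type and less RNA per cell cannot be told apart in spots.

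Sst was present in every area, and its level was higher in the deep than in the upper cortical layers in each set. In striatum Sst stood at 333, 654, 221 and 767 CPM, in the order of the sets. In cortex it stood at 598, 842, 347 and 875 CPM in sets 1 to 4, so set 3 was the lowest in both areas and set 4 the highest. The striatum to cortex ratio of Sst was, in the same order, 0.556 (0.544 to 0.569), 0.776 (0.762 to 0.791), 0.636 (0.619 to 0.653) and 0.877 (0.855 to 0.899). Striatum was below cortex beyond counting error in all 4 sets, and by less than 1.5-fold in sets 2 and 4. By the median over sets, Sst was highest in claustrum and endopiriform spots (1180 CPM, 587 to 1653), followed by layer 5 (910 CPM, 428 to 1200) and layer 6 (890 CPM, 363 to 1146). Ranges of these neighbours overlapped over sets. Striatum ranked 10 of 13 areas, where the medians of septum and thalamus rest on 2 sets and that of ventricle and choroid on 3. Only set 1 had claustrum and endopiriform, layer 5 and layer 6 leading in this order. In set 2, layer 6 came next after claustrum, and layer 5 came after septum and basal forebrain spots. In set 3, hypothalamus and basal forebrain spots came before layer 6. Set 4 had its highest Sst level in ventricle and choroid spots at 1597 CPM.

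Npy was a gene of cortex and claustrum more than of the other areas. In striatum Npy stood at 264, 201, 186 and 490 CPM in sets 1 to 4, and in cortex at 533, 329, 286 and 499 CPM. The striatum to cortex ratio of Npy was 0.495 (0.483 to 0.508), 0.612 (0.592 to 0.632) and 0.650 (0.631 to 0.669) for the first 3 sets. For set 4 it was 0.981 (0.951 to 1.01), a difference within counting error. Claustrum and endopiriform spots had the highest median level of Npy at 527 CPM, ahead of layer 6 at 475 CPM and layer 2/3 at 450 CPM. Hypothalamus and preoptic spots held 57.3 to 89.7 CPM of Npy, and septum spots of sets 2 and 3 held 40.7 and 43.5 CPM.

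Nos1 was higher in striatum than in cortex, in the direction opposite to both peptides. Its level in striatum was 34.3, 53.0, 26.5 and 48.1 CPM in sets 1 to 4, against 23.8, 30.9, 16.5 and 25.9 CPM in cortex. The striatum to cortex ratio of Nos1 was 1.44 (1.32 to 1.56), 1.72 (1.59 to 1.86), 1.61 (1.47 to 1.77) and 1.86 (1.66 to 2.08) in sets 1 to 4, above 1 beyond counting error in each. Within cortex, layer 4 had the lowest level of Nos1 in every set, at 11.6, 9.60, 6.46 and 10.9 CPM. Without the cortex spots under 300 CPM of Slc17a7, the transporter that marks cortical excitatory neurons, layer 4 held 7.21, 7.50, 6.02 and 4.24 CPM. The highest median was in hypothalamus and preoptic spots, at 106, 84.1, 68.2 and 99.6 CPM in sets 1 to 4. Basal forebrain cholinergic spots came next with 51.9 to 92.0 CPM, and exceeded the hypothalamus in set 2.

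Chodl had few counts, and its striatal level exceeded the cortical one beyond counting error in 3 of 4 sets. In striatum there were 73, 62, 67 and 56 counts, or 2.42, 2.53, 2.05 and 5.04 CPM in sets 1 to 4. In cortex there were 97, 43, 41 and 34 counts, or 1.93, 1.09, 0.669 and 1.20 CPM. The striatum to cortex ratio of Chodl was 1.26 (0.914 to 1.72) for set 1, within counting error, and 2.33 (1.55 to 3.52), 3.06 (2.05 to 4.64) and 4.20 (2.70 to 6.64) in sets 2 to 4. Hypothalamus and preoptic spots had the highest level in all 4 sets, at 15.3, 18.2, 17.3 and 20.7 CPM, with a Chodl count in 43.4%, 43.6%, 42.4% and 37.9% of their spots. In striatum 9.92%, 5.68%, 6.67% and 9.78% of spots had one. Thinned to 10000 counts per spot, the striatal shares were 3.03%, 2.70%, 1.26% and 4.89%.

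Cort varied widely between sets and was a cortical and claustral gene where it was counted. Cortex held 7, 460, 3 and 215 counts of Cort in sets 1 to 4, or 0.139, 11.6, 0.0490 and 7.58 CPM. Striatum held 0, 23, 0 and 11 counts. A count of 0 allows up to 0.0996 CPM in set 1 and 0.0918 CPM in set 3. In the sets with more than 10 counts, the striatum to cortex ratio of Cort was 0.0807 (0.0506 to 0.123) in set 2 and 0.131 (0.0642 to 0.238) in set 4. Claustrum and endopiriform spots held the highest level there, with 27.7 CPM in set 2 and 17.1 CPM in set 4. The highest over the lowest set was 237-fold in cortex, with 3 counts in the lowest set. Of 13220 genes with at least 1 CPM, 3 had a larger spread. Cort reached that minimum only through sets 2 and 4, so its place among these genes follows in part from the choice.

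**Figure D1:**
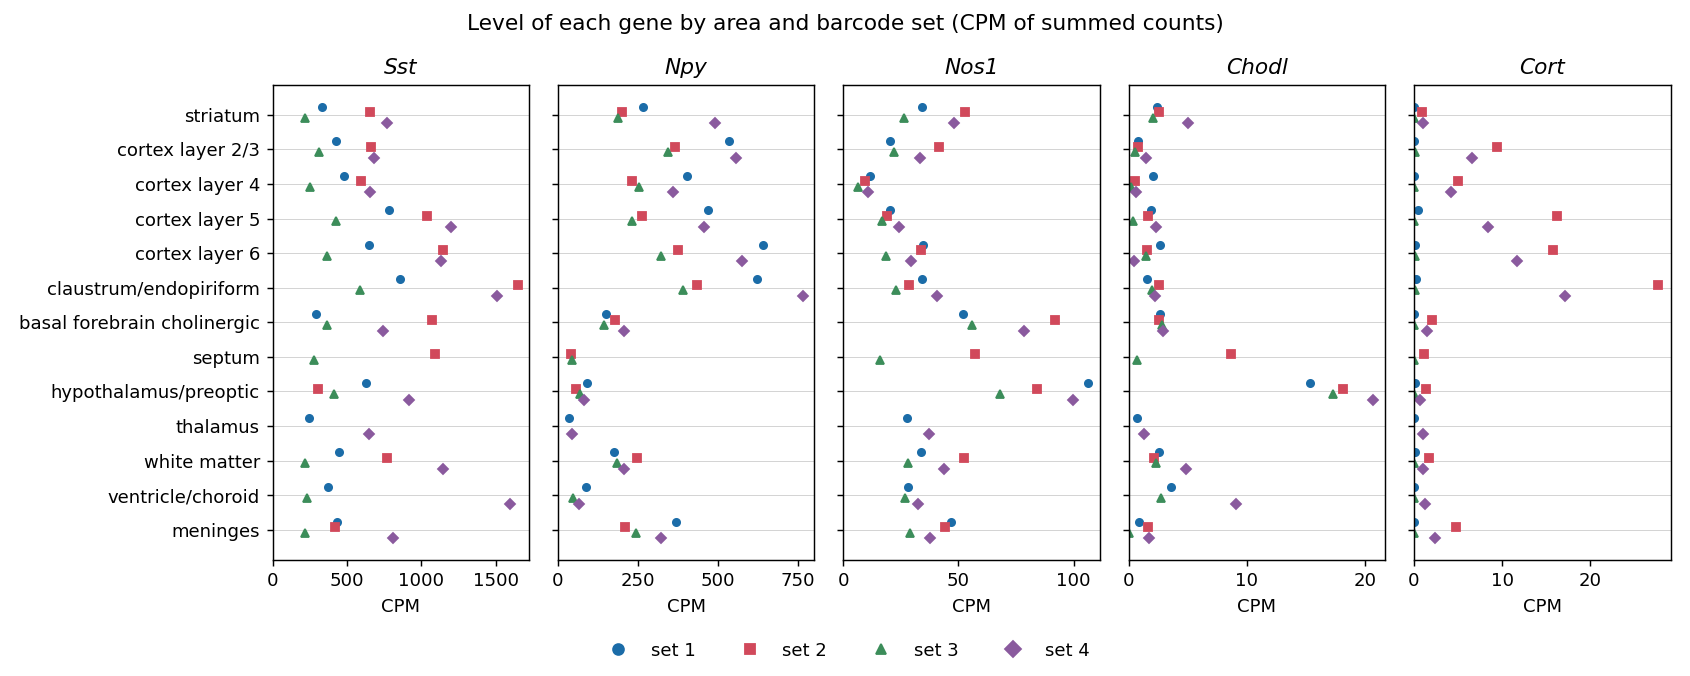
Level of each gene (horizontal axis, CPM, each panel with its own scale) in each area (vertical axis), with 1 point per barcode set; areas with under 50 spots in a set are left out. Nos1 and Chodl reached their highest levels in hypothalamus and preoptic spots, with Nos1 of set 2 the exception, while Npy was highest in claustrum and cortical layers.

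A gene was called different between 2 areas where its ratio reached 1.5-fold in the same direction in each set. Of the 13773 genes that averaged 1 CPM or more, 8.27% were called higher and 11.8% lower in striatum than in cortex. Of the 5 members, 0 were called higher and Cort was called lower. Its ratios of 0 in sets 1 and 3 rest on 7 and 3 cortical counts and were within counting error. Cort also reached the level minimum only through sets 2 and 4. Nos1 missed the call in set 1, Chodl in set 1, Sst (as lower) in sets 2 and 4, and Npy (as lower) in set 4. The deep layers (5 and 6) were also compared with the upper layers (2/3 and 4), where 3.38% of genes were called higher in deep layers and 3.21% lower. Sst was higher in deep layers by 1.57, 1.71, 1.40 and 1.73 fold in sets 1 to 4. Npy differed little, at 1.19, 0.987, 0.920 and 1.08 fold, on both sides of 1. Nos1 had no common direction either, at 1.73, 0.812, 1.21 and 1.09 fold. Chodl stood at 1.80, 2.18, 2.69 and 1.11 fold, with set 4 within counting error. Cort was 1.92 fold in set 2 and 1.81 fold in set 4, and was the member called higher. Set 1 had 7 against 0 counts and set 3 had 2 against 1, both within counting error.

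**Figure D2:**
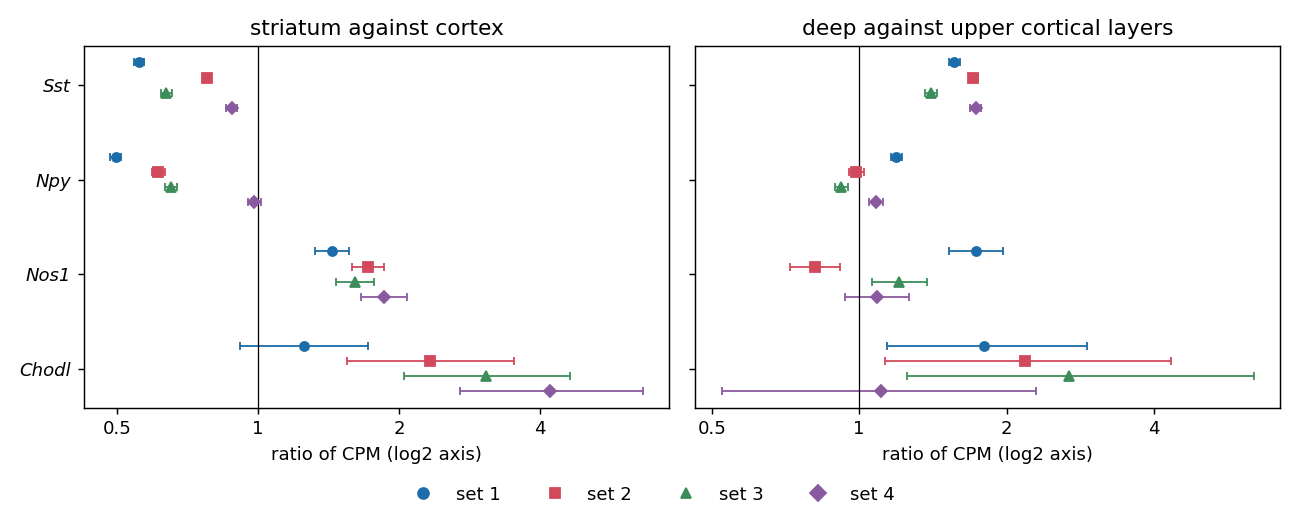
Ratio of CPM (log2 horizontal axis) of striatum over cortex and of deep over upper cortical layers for Sst, Npy, Nos1 and Chodl, with 1 point per set and 95% intervals for counting error. Nos1 lies between 1.44 and 1.86 in striatum over cortex, and Sst between 1.40 and 1.73 in deep over upper layers.

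In striatum, the members differed between sets more than most genes. Of 13230 genes with at least 1 CPM, 46.9% had a highest set at least 1.5-fold over the lowest, and the median spread was 1.47-fold. Sst was 3.48-fold higher in set 4 than in set 3, a spread that exceeded that of 97.2% of genes. Npy spanned 2.63-fold, Chodl 2.46-fold and Nos1 2.00-fold. Set 3 was the lowest for each of these 4 genes. Sst, Npy and Chodl were highest in set 4, and Nos1 in set 2, where its interval (50.2 to 56.0 CPM) overlapped that of set 4 (44.1 to 52.4 CPM). Without set 4 the log2 spread of Npy went from 1.40 to 0.50 and that of Chodl from 1.30 to 0.30. Without set 3 the log2 spread of Sst went from 1.80 to 1.21 and that of Nos1 from 1.00 to 0.63. Whether genotype or section position moved with these levels was not tested.

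The genes that work with the members were counted from lists. Over all genes tested, 8.27% were called higher and 11.8% lower in striatum, and 3.38% higher and 3.21% lower in deep layers. In lists this short, 0 or 1 gene called does not set a list apart from all genes. Of the somatostatin receptors, 4 of 4 tested were called lower in striatum than in cortex: Sstr1 at 0.0871 to 0.151 fold, Sstr2 at 0.198 to 0.392, Sstr3 at 0.0524 to 0.105 and Sstr4 at 0.354 to 0.502. Sstr5, the remaining receptor, was under the level minimum and went the other way where it was counted, with 113 striatal against 2 cortical counts in set 1 and 105 against 9 in set 3. It had 3 against 7 counts in set 2 and 1 against 6 in set 4, within counting error. The median log2 ratio of the 4 tested receptors was -2.44, beside 0.03 over all genes tested. Sstr2 (4.84 to 6.53 fold) and Sstr4 (3.06 to 3.85 fold) were called higher in deep layers. Of 3 tested neuropeptide Y receptors, Npy1r was called lower in striatum (0.412 to 0.574 fold) and lower in deep layers (0.463 to 0.603 fold). Of the 5 genes for the nitric oxide receptor and the cGMP kinases, the receptor subunits Gucy1a1 (1.87 to 3.64 fold) and Gucy1b1 (1.62 to 2.02 fold) were called higher in striatum and the kinase Prkg2 lower (0.292 to 0.585 fold). In deep layers 3 of these 5 were called lower, Gucy1a1 (0.299 to 0.345 fold), Prkg1 (0.344 to 0.422 fold) and Prkg2 (0.232 to 0.315 fold). Nos1ap, an adaptor that binds Nos1, was called lower in striatum (0.532 to 0.660 fold) as 1 of 4 partners and other synthases, and higher in deep layers (2.15 to 2.45 fold).

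Among 6 transcription factors of the medial ganglionic eminence, the embryonic source of these interneurons, Nkx2-1 was called higher in striatum (6.89 to 11.4 fold), and Lhx6 and Satb1 were among those called lower. Lhx6 stood at 0.566 to 0.664 fold and Satb1 at 0.0861 to 0.137 fold. Satb1 was also among the leading genes of layer 5 spots. The cells that hold a gene of these lists cannot be told apart in spots. Of 6 other markers of Sst or Nos1 interneurons, Tacr1, the substance P receptor, was called higher in striatum (7.45 to 10.3 fold), as was Reln (1.53 to 3.06 fold), and Crhbp, Elfn1, Grin3a and Hpse lower. Gad1, Gad2 and Slc32a1 were called higher in striatum as 3 of 4 GABA genes, where the projection neurons are also GABAergic. Of 6 peptide processing genes, Pcsk1 was called lower (0.145 to 0.310 fold). Of 8 markers of other interneuron classes, Chat (11.0 to 22.1 fold) and Th (1.78 to 4.70 fold) were called higher, and Pvalb, Vip, Calb2, Cck and Htr3a lower. Chat is also a marker of the basal forebrain cholinergic score, which draws spots rich in it out of striatum and cortex. In deep layers Th was called higher (2.71 to 25.3 fold), and Vip, Htr3a and the processing enzyme Pam lower. The transcription factor, Sst or Nos1 marker and GABA lists had 0 genes called, near the 3.38% higher and 3.21% lower over all genes.

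In striatum the counts of Sst, Npy and Nos1 were concentrated in the same spots. The 10% of striatal spots with the highest Sst level held 50%, 50%, 52.8% and 53.5% of Sst counts in sets 1 to 4. The corresponding shares were 49.6%, 54.5%, 51.0% and 52.2% for Npy and 47.8%, 48.0%, 45.7% and 47.1% for Nos1. In set 1 the median Sst count was 73 in the top spots and 4 in the other spots. Of the spots in the top 10% for Sst, 66.7%, 78.6%, 67.5% and 77.8% were also in the top 10% for Npy, and 68.3%, 60.0%, 63.8% and 60.0% in that for Nos1. All of Sst, Npy and Nos1 were in their top 10% in 53.3%, 57.1%, 50% and 53.3% of them. In cortex the share for all of them was 31.9%, 21.7%, 22.9% and 18.2%. Sst and Npy were less concentrated there, with 31.8% to 38.9% of Sst counts and 32.4% to 38.0% of Npy counts in the top 10% of spots. Nos1 was not, with 48.5%, 45.3%, 43.1% and 53.9% of its counts there in sets 1 to 4. The top spots were picked by the level of the gene itself, so part of each share follows from the choice. No share for other genes of like level is given.

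Co-occurrence was measured after each spot was thinned to 10000 counts, as the log2 odds ratio of a count of both genes in a spot, so that deeper spots did not raise it. In striatum, Sst and Npy had log2 odds ratios of 2.02, 2.31, 1.74 and 2.34 in sets 1 to 4, Sst and Nos1 of 1.91, 2.38, 1.64 and 1.90, and Npy and Nos1 of 1.95, 2.10, 1.56 and 2.52. These pairs were above 0 in every set. In cortex, Sst and Npy stood at 1.44, 0.77, 0.54 and 1.44, Sst and Nos1 at 0.53, -0.14, 0.56 and -0.21, and Npy and Nos1 at 0.22, 0.45, 0.16 and -0.19. At this depth each of these 3 pairs was higher in striatum than in cortex in all 4 sets. For Sst and Npy the order of the medians turned without thinning, to 2.71 in striatum and 3.17 in cortex. Sst was in 84.4% to 91.8% of thinned cortical spots, against 61.3% to 78.0% in striatum. Chodl was in 10 to 22 thinned striatal spots of a set, so its odds ratios are coarse. Nos1 and Chodl stood at 1.98, 1.71, 2.59 and 1.57 in striatum, and Npy and Chodl at 2.31, 2.09, 2.36 and 1.66. Sst and Chodl stood at 1.30, 1.97, 3.76 and 0.69. In cortex, on 8 to 18 Chodl spots of a set, Nos1 and Chodl stood at 2.74, 2.48, 2.29 and 0.55, above striatum in sets 1 and 2. Npy and Chodl stood there at 1.91, 2.16, -0.20 and -2.17, and Sst and Chodl at 2.31, 0.63, 1.83 and -0.87. Cort was in 5 thinned striatal spots in set 2 and 5 in set 4, and none of its 4 striatal pairs can be read from them.

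**Figure D3:**
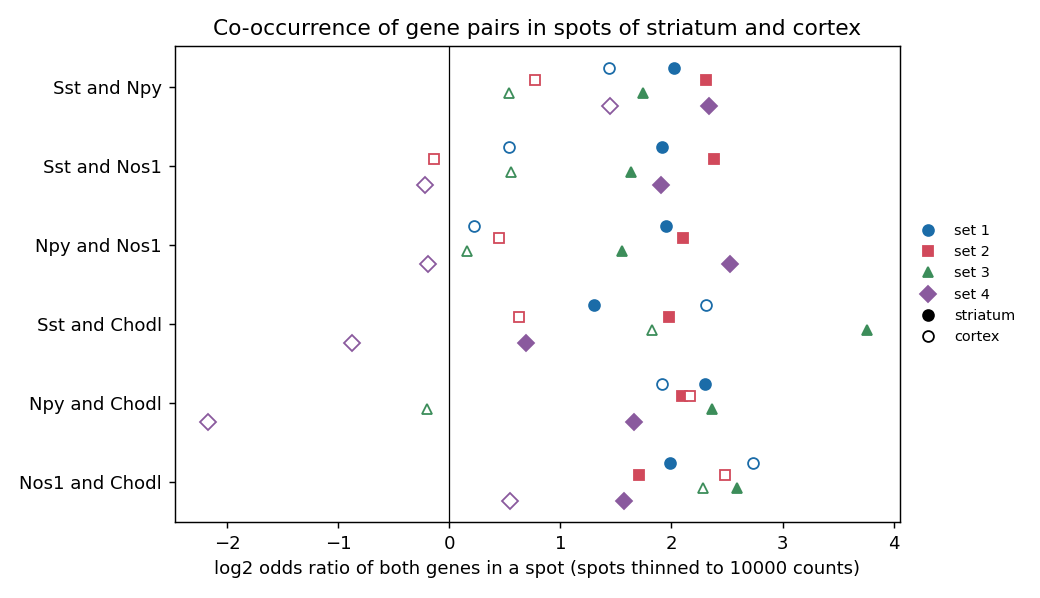
Log2 odds ratio (horizontal axis) for a count of both genes in a thinned spot, by pair (vertical axis) and set, with filled points for striatum and open points for cortex; the line is at 0. For the 6 pairs drawn, which leave out Cort, all filled points lie above 0, and the cortical points of Chodl pairs rest on 8 to 18 Chodl spots of a set.

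Spots with a Chodl count were compared with the other striatal spots. There were 59, 40, 53 and 44 of them in sets 1 to 4, and their median depth was close to that of the others, at 49957 against 48249 counts in set 1 and 24470.5 against 24126 in set 4. Of 10959 genes with at least 5 CPM, 10 (0.0912%) were at least 1.5-fold higher in the Chodl spots in each set, among them Sst, Npy and Nos1. Levels of Sst with and without Chodl were 1090 and 249 CPM, 2375 and 547 CPM, 790 and 177 CPM, and 2325 and 596 CPM, or 4.38, 4.34, 4.46 and 3.90 fold. Npy was 4.45, 5.68, 4.40 and 3.70 fold higher, and Nos1 3.91, 3.52, 3.28 and 2.66 fold. The remaining genes of the leading 5 were Npy2r, a neuropeptide Y receptor (3.05, 2.80, 3.23 and 2.71 fold), and Hhip, which binds hedgehog ligands (3.02, 2.64, 2.11 and 3.28 fold). Tacr1 was called too (2.38, 2.12, 1.86 and 2.22 fold). Fxyd6, Sfrp1, Resp18 and Masp1 complete the 10. Lhx6, at 1.76, 2.84, 2.47 and 1.41 fold, missed the call in set 4. Of the 5 tested markers of other interneuron classes, 0 were called in these spots, where 0.0912% of all genes tested were.

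In cortex, 67, 37, 36 and 30 spots had a Chodl count, and 6 of 11024 genes (0.0544%) were called higher in them. They were Nos1 (5.14, 2.45, 2.57 and 3.63 fold), Npy (3.29, 2.22, 2.71 and 2.14 fold), Sst (2.42, 1.63, 1.88 and 1.78 fold), Crhbp, Nxph4 and Zfhx3, of which Nxph4 is also a marker used to place spots in layer 6. With all sets, 1 gene was called lower in the cortical Chodl spots. Leaving out set 2, 3 or 4 raised the number of genes called higher to between 17 and 22. In hypothalamus and preoptic spots, where Chodl was most abundant, 3 of 11409 genes (0.0263%) were called higher, Myo1h, Scgn and Nek10. No member was among these 3, and 5 genes were called lower. Sst there was 1.19, 2.45, 1.15 and 0.72 fold in the Chodl spots, Npy 0.947, 3.73, 0.863 and 0.496 fold, and Nos1 1.24, 1.35, 1.20 and 1.03 fold. Set 2 stood above the others for both peptides. Among the clusters placed in hypothalamus and preoptic area, a cluster of 379 spots held 370 from set 2. Another held 1 spot from set 2, against 214, 125 and 223 from sets 1, 3 and 4. The remaining one held spots of all 4 sets. Whether the tissue in this area differed between sets was not tested. The hypothalamic and cortical comparisons were chosen after the values were seen.

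**Figure D4:**
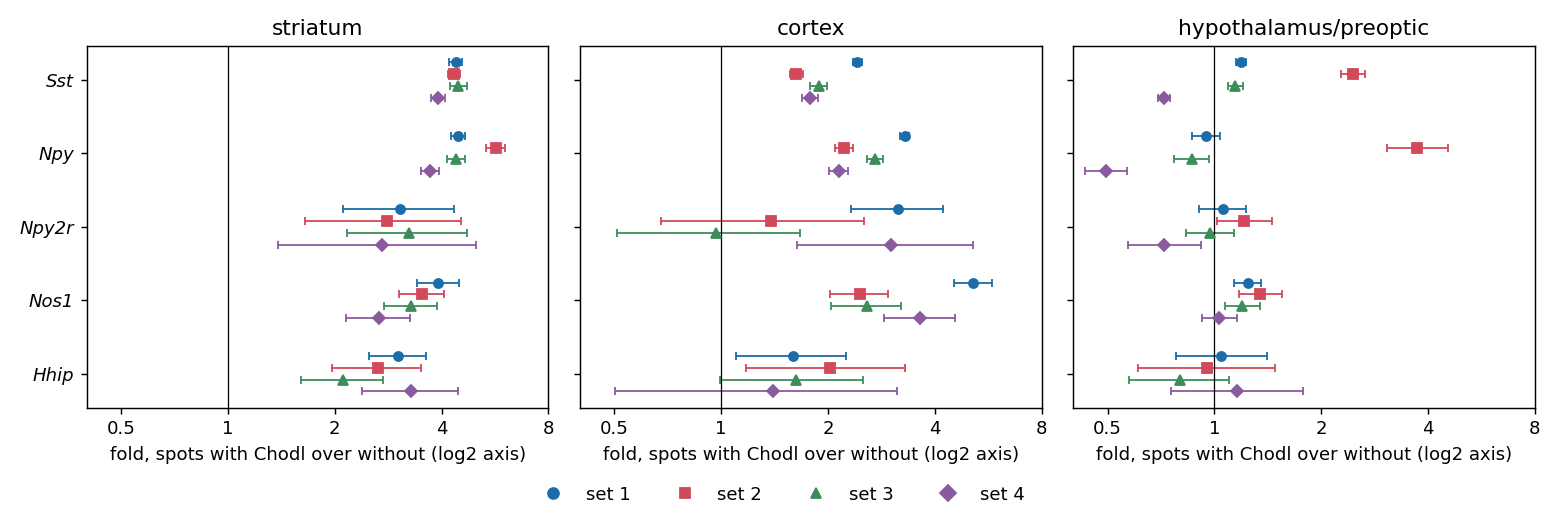
Fold of CPM in spots with a Chodl count over spots without (log2 horizontal axis), for the 5 genes that led in striatum, by set, with 95% intervals for counting error, in striatum, cortex and hypothalamus with preoptic area. In striatum Sst lies between 3.90 and 4.46 in all sets, and in hypothalamus it lies between 0.72 and 2.45.

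Across 50 points, each an area in a set, the genes most like each member in level were found by Pearson correlation of log2(CPM + 1) over 11662 genes, as a description, since points of a set share a library. They included Scoc (r = 0.77) and Mark4 for Sst, and were Kcnv1 (r = 0.88), Gng13 and Rprml for Npy, and Nbdy (r = 0.82), Usp11 and Bex1 for Nos1. For Chodl they were Irs4 (r = 0.82), itself a marker of the hypothalamus score, Sytl4 and Esyt3, and for Cort Ppp1r37 (r = 0.85), Cramp1l and Ankrd13b. Among the members, Chodl and Nos1 correlated at 0.68 over areas and Cort and Sst at 0.70, while Npy and Chodl stood at -0.40. After the mean of each set was removed, r was 0.65 for Chodl and Nos1 but 0.38 for Cort and Sst. It fell to 0.25 for Scoc and 0.35 for Mark4 with Sst, and to 0.54 for Ppp1r37 with Cort. Kcnv1 with Npy (0.91), Nbdy with Nos1 (0.81) and Irs4 with Chodl (0.83) changed little.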

How the data were processed

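Raw counts per gene and spot were deposited by the authors as 1 table; Space Ranger and Seurat are named per the submitters' processing notes, and aligner, build and probe set are not given in the sources used here. Spots with at least 500 counts were kept. Each was placed by the mean z-score of log(1 + counts per 10000) over area markers, where the highest score had to reach 0.5. Area sums were scaled to CPM, with exact Poisson, conditional binomial and Clopper-Pearson 95% intervals (Python 3.11.15, scipy 1.17.1). Areas of under 50 spots in a set were not described. TMM and RLE scaling used edgeR 4.0.16 and clusters used scanpy 1.11.5. Ratios of a set entered a median with at least 10 counts in both areas together and counts in each. Odds ratios had 0.5 added to each cell. A pair was left out of a set where a gene was in no thinned spot; no other minimum was set, and minimums of 5 and 10 spots were tried as alternatives after the values were seen. Barcode suffixes match no sample, so no test, mean or SD over sets was made. Named genes were the 5 members, the 3 most like each, the 5 with the largest lowest-of-4 fold around Chodl spots, and list genes past 1.5-fold; other genes called around Chodl spots, and Lhx6, were named after their values were seen. Members and lists were chosen with earlier results of these data known. Some genes that these rules name are not reported here. The steps were tested on simulated data.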

Additional observations from a re-analysis of the deposited data

Results flagged for a closer look

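The level of Chodl in striatum was picked out because 1 set lay far from the other three. The gap between set 4, at 5.04 CPM, and the nearest set was 0.840 of the whole range over the 4 sets. Chance flags about 1 in 20 groups of this size. All 5 members were screened in striatum, in cortex and over all spots, so a flag among them is not unusual. The striatal value of set 4 rests on 56 Chodl counts.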

How the results depend on the processing

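No paired analysis was possible because the barcode suffixes could not be matched to numbered mice. In log2, over leaving out each set, the striatum to cortex median ranged from -0.65 to -0.37 for Sst and from -0.71 to -0.62 for Npy, and the deep to upper median from 0.65 to 0.78 for Sst and from -0.019 to 0.12 for Npy. The spread in striatum ranged from 1.21 to 1.80 for Sst, 0.50 to 1.40 for Npy, 0.63 to 1.00 for Nos1 and 0.30 to 1.30 for Chodl. Genes called higher around Chodl spots ranged from 6 to 22 in cortex and from 3 to 14 in hypothalamus. Odds ratios ranged from -1.21 to 1.66 (Sst and Cort), -0.68 to 2.04 (Npy and Cort) and -0.37 to 0.76 (Nos1 and Cort) in striatum. In cortex they ranged from -0.14 to 0.53 (Sst and Nos1), -0.43 to 0.81 (Sst and Cort), -0.20 to 1.91 (Npy and Chodl) and -1.71 to 1.66 (Npy and Cort).

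The striatum to cortex median moved to -0.39 (Sst), -0.74 (Npy) and 0.83 (Nos1) with a score minimum of 1, to 0.81 (Nos1) with a margin of 0.25, to -0.58 (Sst), -0.72 (Npy) and 1.00 (Nos1) with clusters, and to -0.54 (Sst) with z-scores within sets. The deep to upper median moved to 0.73 (Sst) and 0.17 (Npy) with a score minimum of 1, 0.66 (Sst) with a margin, 0.58 (Sst) and -0.043 (Npy, turned) with clusters, 0.69 (Sst) and 0.0077 (Npy) with z-scores within sets, 0.73 (Sst) and 0.089 (Npy) with TMM, and 0.070 (Npy) with RLE. The spread moved to 1.92 (Sst) and 1.57 (Npy) with clusters, 1.94 and 1.55 with z-scores within sets, 1.59 and 1.21 with TMM, and 1.62 and 1.22 with RLE. With no gene minimum, 12165 genes had a spread of at least 1.5-fold, as more genes were tested.

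Chosen after seeing the data, cortex spots with at least 300 CPM of Slc17a7 gave -0.49 (Sst) and 0.83 (Nos1) for striatum to cortex, 0.024 (Npy) for deep to upper and 0.73 for the cortical odds ratio of Sst and Npy. Cortex without layer 2/3 gave -0.64 (Sst), -0.56 (Npy) and 1.00 (Nos1), and striatum spots leading by 1 gave a spread of 1.34 (Npy).

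In striatum the odds ratio moved to 3.31 (Sst and Npy), 4.28 (Sst and Nos1), 3.14 (Npy and Nos1) and 2.89 (Nos1 and Chodl) with at least 2 counts. At 5000 counts it was 2.67 (Sst and Npy), 1.71 (Npy and Nos1), 3.80 (Npy and Chodl), 2.59 (Npy and Cort) and -0.32 (Nos1 and Cort). Unthinned it was 2.71 (Sst and Npy), 1.69 (Npy and Nos1) and -0.59 (Chodl and Cort). Sst and Cort turned to -0.0020 with a score minimum of 1, -0.17 with a margin and -0.048 with clusters. In cortex it moved to 0.55 (Sst and Npy) with a score minimum of 1, and to 0.52 (Sst and Npy), 0.54 (Npy and Nos1) and -0.37 (Sst and Cort) with clusters. With at least 2 counts it was 3.12 (Npy and Cort) and 0.80 (Npy and Nos1), and at 5000 counts 0.22 (Npy and Cort), 1.68 (Sst and Cort) and 0.79 (Sst and Nos1). Unthinned it was 3.17 (Sst and Npy, then above the striatal value), 0.63 (Sst and Nos1), -0.31 (Npy and Chodl), -0.47 (Sst and Chodl), -1.21 (Npy and Cort) and -0.049 (Sst and Cort). The cause of these changes was not tested. The pairs that turned in sign hold Cort, or are cortical pairs of Sst and Nos1 or of Chodl with Sst or Npy. Minimums of 5 and 10 spots with each gene were also chosen after seeing the data. That of 10 leaves out all striatal values of the Cort pairs, where Cort was in 5 thinned spots of a set. That of 5 leaves out their cortical values in set 1, where Cort was in 1 thinned spot. Chodl and Cort rest on few counts, with 34 to 97 and 3 to 460 in cortex; the sets with 7 and 3 Cort counts there were the deepest.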
